A study of Heterocephalus glaber with 9 samples.

Results

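The mitochondrial carriers of the SLC25 family were examined in livers of old and young naked mole-rats, a rodent that lives far longer than other rodents of its size. Members were the rows of the deposited count table with an SLC25A symbol and a number, except SLC25A15 and SLC25A20, together with the uncoupling proteins UCP1, UCP2 and UCP3. This gave 48 genes of the 16221 gene rows analysed, and SLC25A32 was not analysed here. Of the 48, 41 passed the filter on low counts among 12277 genes in all. The other 7 (SLC25A2, SLC25A31, SLC25A41, SLC25A52, SLC25A53, UCP1 and UCP3) had at most 8 counts in a liver and were not tested.

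Carriers of this family sit mostly in the inner membrane of the mitochondrion, which is impermeable to most metabolites. They exchange ADP for ATP, let in phosphate, move citrate, malate, aspartate and glutamate between matrix and cytosol, and supply the matrix with cofactors such as coenzyme A, NAD and iron. In liver, where the urea cycle, gluconeogenesis and fatty acid synthesis run partly in the matrix and partly in the cytosol, they join the steps on either side of the membrane. The roles named here are known from human, mouse, rat or yeast work and not from the naked mole-rat.

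Liver RNA came from 3 old and 6 young males, with 1 library per animal. The old animals A, B and C were 20, 30 and 20 years old by their labels and were not breeders. The study itself gives these ages as lower bounds, and slightly higher ones for A and C than the labels do. The young animals were 3.4, 2.7, 4.1, 3.7, 3.8 and 2.8 years old by theirs, and each is named by its age. No genotype or treatment is given for either group, and the labels name no batch. The young libraries are labelled as re-used, their descriptions begin with another number than those of the old libraries, and liver A is labelled as merged. Age and this difference between the libraries cannot be told apart.

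Libraries held between 15176226 and 20048731 counts in old livers and between 14541856 and 20464409 in young livers. Of the old livers, A stood apart, and of the young livers, the 4.1-year one. Albumin took 1.41% of the counts in A, 7.69% in B and 6.99% in C, and 7.86% (4.1-year) to 14.8% in young livers. Counts of MTRNR2L4, a gene similar to the mitochondrial rRNA, were 10.1% of the total in A and 11.9% in the 4.1-year liver, with 2.43% to 4.17% in the other 7 livers. Across genes, A had Spearman correlations of 0.907 with B and 0.914 with C, while those 2 livers had 0.992. Summed over 10 hepatocyte markers, which were detected in every liver, the level was 28991 CPM (counts scaled to a common library size) in A, 106915 in B and 95308 in C, against 133136 (4.1-year) to 223579 in young livers. Albumin was the largest part of the sum in every liver, with 11955 CPM in A, 69097 in B and 61356 in C. Young livers had 90095 (4.1-year) to 177159 CPM of it. Of the 10 markers, 8 had negative log2 fold changes of old over young, while APOA1 (1.07) and HNF4A (0.16) had positive ones. At the threshold used below, 1 was lower and 0 were higher, against 3.65% and 11.7% of all genes tested. The part of these differences in the results was not tested, and log2 fold changes are therefore given with all livers and, for the carriers described singly, also without these 2. Other marker lists differed in A as well. Summed endothelial markers had 1534 CPM in A, 600 in B and 583 in C, against 345 to 646 in young livers. STAB1 and STAB2 made up most of it in A, with 755 and 433 CPM, while CDH5 and LYVE1 were lowest there. Macrophage markers summed to 85.6, 554 and 506 CPM in A, B and C, against 258 to 367 CPM in young livers. In such bulk samples fewer cells of a type and less RNA per cell cannot be told apart.

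Of the 41 carriers tested, 1 was higher in old livers (SLC25A42), 1 was lower (SLC25A48), and 39 did not pass the threshold of a false discovery rate (FDR) of 0.1 in edgeR's quasi-likelihood test. The share of carriers called was 4.88%, against 15.4% of all genes tested. It was 2.44% against 11.7% for higher and 2.44% against 3.65% for lower calls. At an unadjusted p under 0.05 there were 9 carriers (22.0%), against 29.1% of all genes. The median log2 fold change of old over young was -0.15 over the carriers and 0.02 over all genes tested, and 25 carriers (61.0%) were negative, against 49.2% of all genes.

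Without liver A and the 4.1-year liver, 2 carriers were higher (SLC25A34 and SLC25A42), where 14.2% of all genes were called higher. In the same fit 8 were lower (SLC25A1, SLC25A3, SLC25A13, SLC25A17, SLC25A21, SLC25A26, SLC25A46 and SLC25A48). These 8 were 19.5% of the carriers, against 11.7% of all genes called lower. SLC25A42 and SLC25A48 were called in both fits. The median log2 fold change of the carriers was then -0.02, against -0.01 over all genes.

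Other tools and livers moved these counts. DESeq2 called 2 carriers higher (14.5% of all genes) and 5 lower (8.72% of all genes), and limma voom with quality weights called 5 higher (20.5% of all genes) and 9 lower (16.8% of all genes). Without A alone, SLC25A34 and SLC25A42 were higher (2.13% of all genes) and SLC25A21 lower (1.35% of all genes). Without B, 5 carriers were higher (16.5% of all genes). Without the 4.1-year liver, 3 were higher (17.0% of all genes) and 6 lower (7.06% of all genes). SLC25A42 was called higher in each of these fits, and SLC25A48 was called lower by DESeq2, by limma voom and without the 4.1-year liver, but not without A alone.

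**Figure D1:**
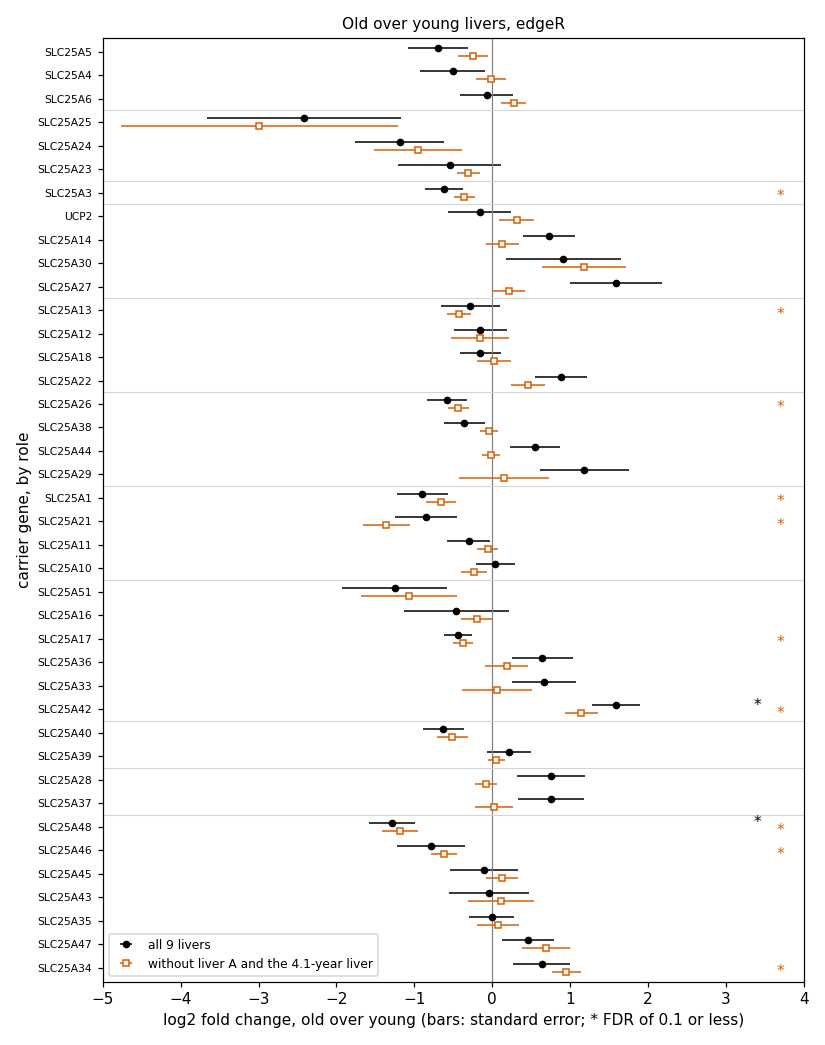
Log2 fold changes of old over young livers (horizontal axis) for 40 of the 41 carriers tested (vertical axis, grouped by role), with standard errors, from all 9 livers (filled circles) and without liver A and the 4.1-year liver (open squares). Asterisks mark an FDR of 0.1 or less, which SLC25A42 and SLC25A48 reach in both fits, and the change of SLC25A25 has the widest bar in the fit of all livers.

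SLC25A42 imports coenzyme A, the carrier of acyl groups in fatty acid oxidation and the citric acid cycle, in exchange for adenine nucleotides. Its level was 185 CPM in A, 82.5 in B and 80.0 in C, against a lowest level of 29.7, a median of 34.7 and a highest of 53.7 CPM in young livers. The old livers all stood above the young ones, and A was the highest of the old. The means were 116 ± 59.8 CPM in old (SD, n = 3) and 38.4 ± 9.65 CPM in young livers (SD, n = 6). The log2 fold change was 1.59 (SE 0.31, edgeR FDR = 0.0376), and 1.15 without A and the 4.1-year liver (edgeR FDR = 0.0111). It passed the threshold under every setting tried.

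SLC25A48 carries choline into the mitochondrion, where choline is oxidised to betaine. It had 4.25, 7.40 and 5.93 CPM in old livers A, B and C, against 9.77 to 18.6 CPM in young livers (median 14.7). No old liver reached the level of a young one. The means were 5.86 ± 1.58 CPM in old (SD, n = 3) and 14.3 ± 3.57 CPM in young livers (SD, n = 6), with a log2 fold change of -1.28 (SE 0.30, edgeR FDR = 0.0447). The value was -1.19 without A and the 4.1-year liver (edgeR FDR = 0.0129). It fell short of the threshold without liver A (log2 fold change -1.10, edgeR FDR = 0.105), without the 2.7-year liver (edgeR FDR = 0.107) and without the 3.7-year liver (edgeR FDR = 0.103).

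**Figure D2:**
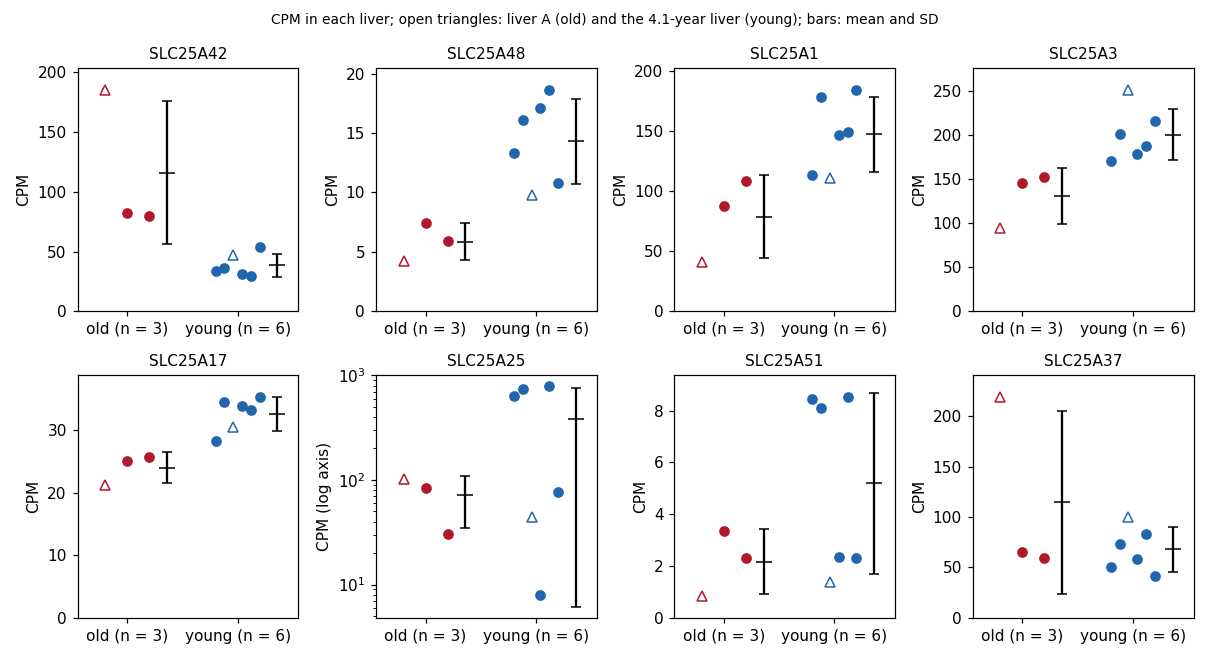
CPM (vertical axes, logarithmic for SLC25A25) of 8 carriers in each old liver (left, red) and young liver (right, blue), with the mean and SD as bars and liver A and the 4.1-year liver as open triangles. The groups do not overlap for SLC25A42, SLC25A48, SLC25A1, SLC25A3 and SLC25A17, while the highest young liver has 101 times the SLC25A25 level of the lowest.

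The ADP/ATP translocases and the phosphate carrier together provide ATP synthase with its substrates. SLC25A4, SLC25A5 and SLC25A6, which exchange ATP for ADP, did not pass the threshold, and their log2 fold changes lay between -0.69 and -0.07. SLC25A4 had 23.4 CPM in A, 125.5 in B and 93.1 in C, against 85.5 to 136 CPM in young livers (median 117). SLC25A5 had 32.1, 119 and 117 CPM in A, B and C, against 114.5 to 188 CPM in young livers (median 141). Both were lowest of all livers in A, while B and C lay within the young range. Without A and the 4.1-year liver their log2 fold changes were -0.02 (edgeR FDR = 0.964) and -0.25 (edgeR FDR = 0.401).

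SLC25A6, the translocase with the most counts, had 123 CPM in A, 349.5 in B and 421 in C, against 280 to 380 CPM in young livers (median 302). Liver A lay below the young range and C above it. On the log2 scale the fold change was -0.07 (SE 0.34, edgeR FDR = 0.900) with all livers and 0.27 (edgeR FDR = 0.255) without A and the 4.1-year liver. The germ cell translocase SLC25A31 had from 0 to 0.36 CPM and was below the filter.

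SLC25A3, the phosphate carrier, which also brings copper to cytochrome oxidase, had 94.4, 145 and 152 CPM in A, B and C, against 171 to 251 CPM in young livers (median 194). All 3 old livers lay below all young ones. Its log2 fold change of -0.62 (SE 0.24) did not pass (edgeR FDR = 0.126), and without A and the 4.1-year liver it was -0.36 (edgeR FDR = 0.0985). Old and young livers did not overlap in 5 carriers in all. Old livers were above in SLC25A42, where 9.83% of all genes did the same. They were below in SLC25A1, SLC25A3, SLC25A17 and SLC25A48, or 9.76% of the carriers, against 8.01% of all genes.

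The calcium-regulated carriers, which exchange ATP-Mg for phosphate and so set the adenine nucleotide pool of the matrix, had the lowest median of the role groups (-1.19 over 3 members tested), and none passed. This median is the value of SLC25A24, which had only 0.39 to 4.02 CPM, and the SEs of the 3 members were 0.57 to 1.25. SLC25A25 had 101.5 CPM in A, 83.6 in B and 30.3 in C. In young livers it had 636 CPM (3.4-year), 747 (2.7-year), 44.0 (4.1-year), 7.86 (3.7-year), 797 (3.8-year) and 77.0 (2.8-year). The 3.4-, 2.7- and 3.8-year livers thus stood far above the other 3 young livers, and the old livers lay within the young range. The log2 fold change was -2.42 (SE 1.25, edgeR FDR = 0.215), and -2.99 without A and the 4.1-year liver (SE 1.78, edgeR FDR = 0.294).

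The ratio of the highest to the lowest young liver was 101 for SLC25A25, and its SD over young livers on the log2 scale ranked 4 among the 12277 genes tested. Over the carriers tested the median of this SD was 0.352, against 0.343 over all genes. The 3.4-, 2.7- and 3.8-year livers were the 3 highest young livers in 4 carriers (SLC25A25, SLC25A33, SLC25A45 and SLC25A51), or 9.76% of the carriers, against 7.95% of all genes. Of the 6 regulators of mitochondrial genes tested, PPARGC1A and NRF1 had their highest young levels in the same livers. GABPA, TFAM, ESRRA and PPARA did not. PPARGC1A, a coactivator of mitochondrial genes in mouse liver, had 26.7, 54.2 and 75.6 CPM there. It had 14.3, 9.10 and 17.9 CPM in the 4.1-, 3.7- and 2.8-year livers. For NRF1 the levels were 6.67, 7.75 and 6.73 CPM, against 2.44, 5.97 and 6.23 CPM. A link of either gene to SLC25A25 was not tested.

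SLC25A23 had 3.58 CPM in A, 22.6 in B and 21.4 in C, against 3.17 to 31.8 CPM in young livers (median 26.4). Liver A and the 4.1-year liver were the 2 lowest, and the log2 fold change was -0.55 (SE 0.66) with all livers and -0.31 without these 2 (edgeR FDR = 0.589 and 0.186). SLC25A24 had 0.39, 1.35 and 1.07 CPM in A, B and C, against 1.19 to 4.02 CPM in young livers (median 1.35), and its log2 fold change was -1.19 (SE 0.57, edgeR FDR = 0.190), or -0.95 without A and the 4.1-year liver (edgeR FDR = 0.274). SLC25A41 was below the filter.

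Uncoupling proteins let protons or substrates leak across the inner membrane, and UCP1 does so for heat in brown fat. UCP1 had 0 or 1 count in each liver and UCP3, the form of muscle and brown fat, was below the filter too. UCP2 had 2.57, 11.2 and 9.92 CPM in A, B and C, against 6.61 to 10.9 CPM in young livers (median 8.94), and its log2 fold change was -0.16 (SE 0.40, edgeR FDR = 0.806). Liver A lay below all young livers and B above them, and without A and the 4.1-year liver the log2 fold change was 0.31 (edgeR FDR = 0.350).

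Of the relatives of the uncoupling proteins, SLC25A30, a carrier first described in kidney, had the most counts. It had 4.08 CPM in A, 30.4 in B and 31.3 in C, against 1.72 to 29.5 CPM in young livers (median 9.71). B and C lay above all young livers and A within their range. Old over young, the log2 fold change was 0.92 (SE 0.74, edgeR FDR = 0.414) and 1.18 without A and the 4.1-year liver (edgeR FDR = 0.181).

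SLC25A27 and SLC25A14, best known from brain, were high in A. SLC25A27 had 29.5 CPM in A, 3.99 in B and 3.99 in C, against 2.87 to 7.66 CPM in young livers (median 3.57). Its log2 fold change was 1.59 (SE 0.60, edgeR FDR = 0.115) with all livers and 0.21 without A and the 4.1-year liver (edgeR FDR = 0.496). SLC25A14 had 8.94 CPM in A, 3.27 in B and 3.80 in C, against 2.68 to 3.90 CPM in young livers (median 3.16), with B and C within the young range. For SLC25A14 the log2 fold change was 0.72 (SE 0.33, edgeR FDR = 0.174) and 0.13 without A and the 4.1-year liver (edgeR FDR = 0.711).

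Aspartate and glutamate carriers serve the malate-aspartate shuttle and the urea cycle. SLC25A13, or citrin, the aspartate/glutamate exchanger of liver, had 74.1, 90.1 and 71.6 CPM in A, B and C, against 28.7 (4.1-year) to 124 CPM in young livers (median 108). Apart from the 4.1-year liver, which was the lowest of all, the old livers were among the low ones. The log2 fold change was -0.28 (SE 0.38, edgeR FDR = 0.639) and -0.43 without A and the 4.1-year liver (edgeR FDR = 0.0927). SLC25A12, or aralar, the form of brain and muscle, had 4.08 to 5.87 CPM in old livers and 2.60 to 7.63 CPM in young livers (median 6.02), with a log2 fold change of -0.15 (edgeR FDR = 0.782), and -0.16 without A and the 4.1-year liver (edgeR FDR = 0.800).

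SLC25A22, a glutamate carrier that moves glutamate with a proton, had 74.8 CPM in A, 39.2 in B and 51.7 in C, against 14.3 to 41.6 CPM in young livers (median 32.5). A and C lay above all young livers, and B within their range. For this carrier the log2 fold change was 0.88 (SE 0.33, edgeR FDR = 0.115) and 0.46 without A and the 4.1-year liver (edgeR FDR = 0.179). The second glutamate carrier, SLC25A18, had 68.3 to 85.7 CPM in old livers and 53.5 to 113 CPM in young livers (median 83.2), with a log2 fold change of -0.15 (SE 0.26, edgeR FDR = 0.712), and 0.02 without A and the 4.1-year liver (edgeR FDR = 0.961).

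Of the carriers of other amino acids, none passed. SLC25A44, which takes branched-chain amino acids into the matrix, had 320 CPM in A, 114 in B and 127 in C, against 116 to 160 CPM in young livers (median 121). A stood above all young livers, B just below them and C within their range. On the log2 scale the fold change was 0.55 (SE 0.32, edgeR FDR = 0.265) with all livers and -0.01 without A and the 4.1-year liver (edgeR FDR = 0.955). SLC25A29, a carrier of basic amino acids, likewise had 38.4 CPM in A against 9.60 in B and 8.44 in C, with 2.66 to 15.3 CPM in young livers. For SLC25A29 the log2 fold change was 1.18 (SE 0.57, edgeR FDR = 0.188) and 0.15 without A and the 4.1-year liver (edgeR FDR = 0.884).

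SLC25A26 brings S-adenosylmethionine, the methyl donor, into the matrix. It had 9.00 CPM in A, 15.7 in B and 15.8 in C, against 14.4 to 23.6 CPM in young livers (median 21.0). Of the young livers only the 4.1-year one was below B and C. Its log2 fold change was -0.58 (SE 0.26, edgeR FDR = 0.163) and -0.43 without A and the 4.1-year liver (edgeR FDR = 0.0579). SLC25A38, which supplies glycine for haem synthesis, had 26.7, 33.7 and 38.6 CPM in A, B and C, against 35.8 to 68.1 CPM in young livers, with a log2 fold change of -0.36 (SE 0.26, edgeR FDR = 0.371), and -0.04 without A and the 4.1-year liver (edgeR FDR = 0.839). The ornithine carrier SLC25A2 was below the filter.

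Di- and tricarboxylate carriers had a median log2 fold change of -0.58 over 4 members, and none passed with all livers. Medians of the role groups went both ways. Those of the uncoupling proteins and relatives (0.82), iron (0.76), cofactors and nucleotides (0.64) and other amino acids (0.09) were positive, and the rest were negative. Without A these 4 were 0.19, -0.19, 0.04 and -0.16, and that of the di- and tricarboxylate carriers was -0.42. SLC25A1 exports citrate, from which cytosolic acetyl-CoA is made for fatty acid and sterol synthesis. It had 40.7, 87.6 and 108 CPM in A, B and C, against 111 to 184 CPM in young livers (median 148). Every old liver was below every young one, C narrowly so. The log2 fold change was -0.90 (SE 0.33, edgeR FDR = 0.109) and -0.66 without A and the 4.1-year liver (edgeR FDR = 0.0508).

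SLC25A10 exchanges malate or succinate for phosphate. It had 403 CPM in A, 207 in B and 273.5 in C, against 245 to 316 CPM in young livers (median 296). A was the highest of all livers and B the lowest, so that the log2 fold change was 0.04 (SE 0.25, edgeR FDR = 0.925) with all livers and -0.23 without A and the 4.1-year liver (edgeR FDR = 0.348). The 2-oxoglutarate/malate carrier SLC25A11 had 14.9 CPM in A, 32.6 in B and 36.3 in C, against 27.5 to 40.8 CPM in young livers, with a log2 fold change of -0.30 (SE 0.28, edgeR FDR = 0.476), and -0.06 without A and the 4.1-year liver (edgeR FDR = 0.783). SLC25A21, which carries oxoadipate from lysine and tryptophan breakdown, had 4.08 CPM in A, 1.26 in B and 1.90 in C, against 3.02 to 5.68 CPM in young livers (median 4.32). B and C lay below the young range and A within it. Old over young, this gave a log2 fold change of -0.85 (SE 0.40, edgeR FDR = 0.179) and -1.36 without A and the 4.1-year liver (edgeR FDR = 0.0191).

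Among the carriers of cofactors and nucleotides, SLC25A17 belongs to the peroxisome, where it carries coenzyme A, FAD and NAD. It had 21.3, 25.1 and 25.8 CPM in A, B and C, against 28.3 to 35.4 CPM in young livers (median 33.6). The groups did not overlap, but the log2 fold change of -0.44 (SE 0.18) did not pass (edgeR FDR = 0.143). Without A and the 4.1-year liver it was -0.38 (edgeR FDR = 0.0687). SLC25A16, whose yeast relative serves coenzyme A in the matrix, had 1.01 CPM in A, 6.28 in B and 8.67 in C, against 0.99 (4.1-year) to 9.99 CPM in young livers (median 8.25), so that A and the 4.1-year liver were the lowest. The log2 fold change of SLC25A16 was -0.46 (SE 0.68, edgeR FDR = 0.666) and -0.20 without these 2 (edgeR FDR = 0.533).

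SLC25A51 is the NAD carrier of the inner membrane. It had 0.84, 3.36 and 2.32 CPM in A, B and C, against 1.39 to 8.54 CPM in young livers (median 5.24). The 3.4-, 2.7- and 3.8-year livers stood apart here too, and the old livers lay in the lower part of the young range or below it. Its log2 fold change was -1.25 (SE 0.68, edgeR FDR = 0.235), and -1.07 without A and the 4.1-year liver (edgeR FDR = 0.265). Its close relative SLC25A52 had a count in A alone.

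The pyrimidine nucleotide carriers SLC25A33 and SLC25A36 had log2 fold changes of 0.67 (SE 0.41, edgeR FDR = 0.294) and 0.64 (SE 0.39, edgeR FDR = 0.280). SLC25A33 had 83.6 CPM in A, 31.5 in B and 37.7 in C, against 12.2 to 48.4 CPM in young livers. SLC25A36 had 3.58 CPM in A, 1.26 in B and 1.53 in C, against 1.05 to 1.98 CPM in young livers. In both carriers B and C lay within the young range and A above it. Without A their log2 fold changes were 0.11 (edgeR FDR = 0.920) and 0.05 (edgeR FDR = 0.958), and without A and the 4.1-year liver 0.07 (edgeR FDR = 0.937) and 0.19 (edgeR FDR = 0.676).

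SLC25A39, the glutathione carrier, and SLC25A40, its relative, supply the matrix with its main thiol. SLC25A39 had 79.2 CPM in A, 40.5 in B and 48.3 in C, against 40.8 to 75.4 CPM in young livers (median 43.4), where the highest was the 4.1-year liver. For this carrier the log2 fold change was 0.22 (SE 0.28, edgeR FDR = 0.619), and 0.06 without A and the 4.1-year liver (edgeR FDR = 0.769). SLC25A40 had 18.4, 27.3 and 31.2 CPM in A, B and C, against 29.5 to 57.0 CPM in young livers (median 39.6). C alone of the old livers was within the young range. The log2 fold change of SLC25A40 was -0.63 (SE 0.27, edgeR FDR = 0.147), and -0.51 without A and the 4.1-year liver (edgeR FDR = 0.111).

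The mitoferrins SLC25A37 and SLC25A28 import iron for haem and iron-sulphur clusters, the first mainly in developing red cells and the second in other tissues. SLC25A37 had 219 CPM in A, 65.2 in B and 59.6 in C, against 41.7 to 101 CPM in young livers (median 65.7). SLC25A28 had 90.3 CPM in A, 18.7 in B and 25.5 in C, against 21.7 to 42.3 CPM in young livers (median 23.8). In both, A was above all other livers. The log2 fold changes were 0.76 (edgeR FDR = 0.250) and 0.76 (edgeR FDR = 0.263) with all livers, and 0.03 (edgeR FDR = 0.956) and -0.08 (edgeR FDR = 0.731) without A and the 4.1-year liver. No erythroid marker was at 0 in all livers among the 7 in the table, and 3 of the 4 tested were lower in old livers, as were 3.65% of all genes. Their summed level was 56.1 to 97.9 CPM in old livers and 214 to 900 CPM in young livers, with the highest sum in the 4.1-year liver, and their part in the values of SLC25A37 was not tested.

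Of the remaining members, SLC25A47, found mainly in liver in humans and mice, had 316 CPM in A, 662 in B and 618 in C, against 246 to 627 CPM in young livers (median 351). B lay above all young livers, C near the top of their range and A in its lower part. Its log2 fold change was 0.46 (SE 0.33, edgeR FDR = 0.367), and 0.69 without A and the 4.1-year liver (edgeR FDR = 0.149). SLC25A34 had 8.77 CPM in A, 27.3 in B and 34.1 in C, against 11.1 to 19.2 CPM in young livers (median 14.1). Old over young, this gave a log2 fold change of 0.64 (SE 0.37, edgeR FDR = 0.259) with all livers and 0.95 without A and the 4.1-year liver (edgeR FDR = 0.0142), B and C being above all young livers and A below.

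SLC25A46, a protein of the outer membrane that takes part in mitochondrial fission and lipid handling, had 3.46, 9.51 and 10.3 CPM in A, B and C, against 4.82 to 17.7 CPM in young livers (median 13.7). Its log2 fold change was -0.79 (SE 0.44, edgeR FDR = 0.245) and -0.62 without A and the 4.1-year liver (edgeR FDR = 0.0386). SLC25A35, SLC25A43 and SLC25A45 had log2 fold changes between -0.10 and -0.01 with all livers, and between 0.07 and 0.13 without A and the 4.1-year liver, none past the threshold.

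Liver A stood apart from the other old livers in many carriers. Its level was below both B and C in 22 carriers, above both in 16 and between them in 3. It differed more than 2-fold from the mean log2 level of B and C in 26 carriers (63.4%), against 43.4% of all genes tested, while B and C lay within 1.5-fold of each other in 39. In 11 carriers the log2 fold change had the other sign without A. For the order of A, the closeness of B and C and these changes of sign, no share over all genes is given. These counts are therefore not read as particular to the carriers. A and the 4.1-year liver were the 2 lowest of the 9 livers in 9 carriers (SLC25A11, SLC25A16, SLC25A23, SLC25A26, SLC25A30, SLC25A34, SLC25A45, SLC25A46 and SLC25A51), or 22.0%, against 19.6% of all genes. They were the 2 highest in 8 (among them SLC25A27, SLC25A28, SLC25A36, SLC25A37, SLC25A39, SLC25A43 and SLC25A44), or 19.5%, against 15.3% of all genes.

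**Figure D3:**
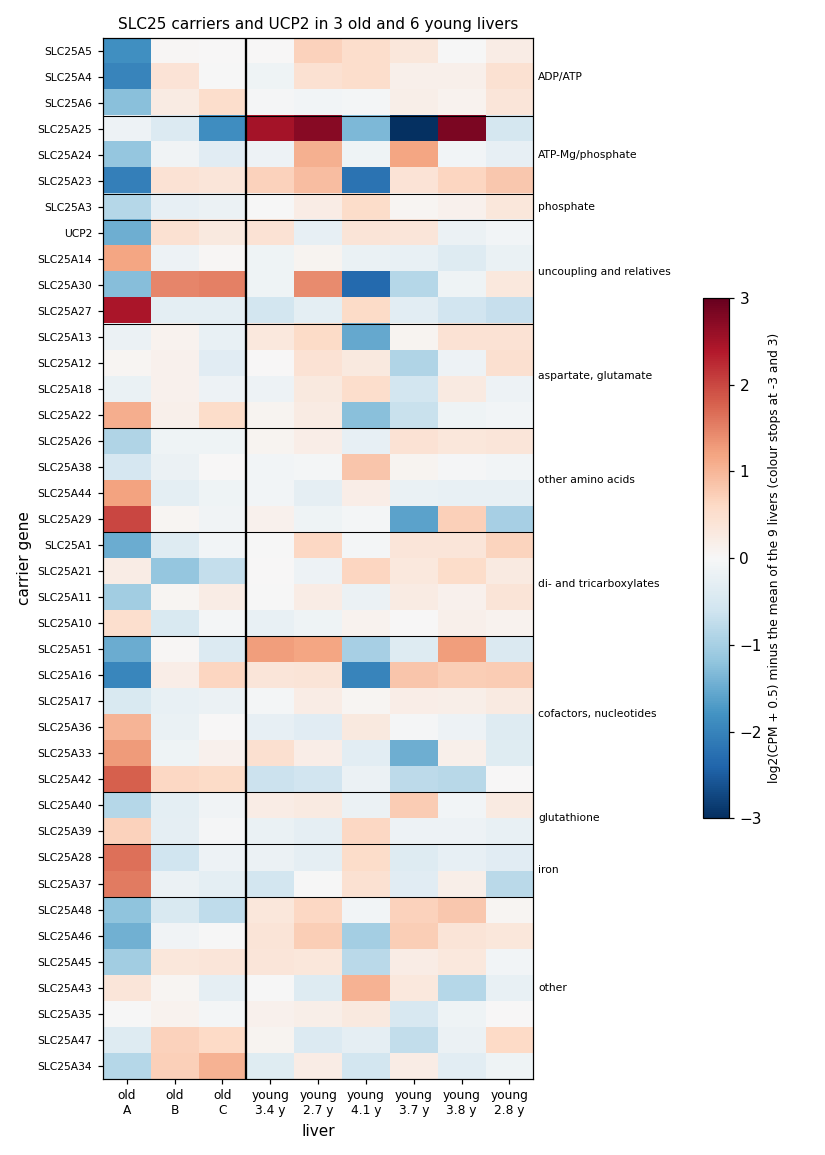
Levels of 40 of the 41 carriers tested (rows, grouped by role) in the 3 old livers (left) and the 6 young livers (right), as log2(CPM + 0.5) minus the mean of the 9 livers, with red above and blue below that mean. Liver A and the 4.1-year liver are the 2 lowest in 9 carriers and the 2 highest in 8, and SLC25A25 is high in the 3.4-, 2.7- and 3.8-year livers.

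Ratios of related carriers within a liver do not depend on how libraries are scaled, and 9 pairs were compared between old and young livers. Gene lengths do not enter them, so a ratio is read only against the same ratio in other livers. SLC25A6 over SLC25A5 was 3.84 in A, 2.95 in B and 3.58 in C, against 1.49 to 2.83 in young livers (median 2.34). The old livers all lay above the young ones. The difference of the log2 ratios, old minus young, was 0.65 (exact permutation test, two-sided p = 0.0238, the smallest that 84 assignments allow, and 0.214 adjusted over the 9 pairs). A single pair at this smallest p gets 0.214 after adjustment, so 1 pair alone could not pass an FDR of 0.1. Only uniquely mapped reads were counted, and these translocases are close in sequence and have processed copies in mammals, so their counts hold only the reads that tell them apart.

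The other 8 ratios overlapped between old and young livers, and the lowest adjusted p among them was 0.321. SLC25A18 over SLC25A22 was 0.91, 2.18 and 1.38 in A, B and C, against 1.91 to 7.94 in young livers (median 2.38), with a difference of -1.03 of the log2 ratios (exact permutation test, p = 0.0714, adjusted 0.321). This difference was -0.43 without A and the 4.1-year liver (exact permutation test, p = 0.286), -0.72 without A and -0.74 without the 4.1-year liver. SLC25A10 over SLC25A11 was 27.0 in A, 6.35 in B and 7.53 in C, against 7.05 to 11.1 in young livers. The mitoferrin ratio, SLC25A37 over SLC25A28, was 2.43, 3.48 and 2.34 in A, B and C, against 1.85 to 3.48 in young livers, although both genes were high in A.

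**Figure D4:**
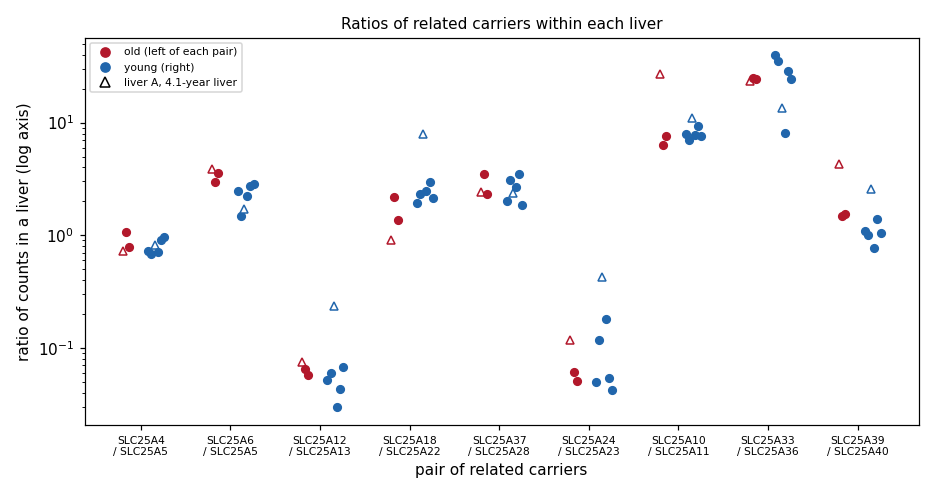
Ratios of counts of 9 pairs of related carriers within each liver (vertical axis, logarithmic), old livers in red left of young livers in blue, with liver A and the 4.1-year liver as open triangles. SLC25A6 over SLC25A5 is the pair without overlap (2.95 to 3.84 in old and 1.49 to 2.83 in young livers).

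Genes that work with the carriers were counted in the same fit, from lists chosen with earlier results of these data known. Of 15 genes tested of the route that brings carriers into the inner membrane (TOM receptors and pore, small TIM chaperones, TIM22), 0 passed the threshold in edgeR, against 15.4% of all genes, with a median log2 fold change of -0.43. At an unadjusted p under 0.05 there were 4, against 29.1% of all genes. DESeq2 called 2, where it called 14.5% of all genes higher and 8.72% lower. Limma voom called 4, where it called 20.5% of all genes higher and 16.8% lower. Without A and the 4.1-year liver the median was -0.07, and TOMM20 (edgeR FDR = 0.0295), AGK (edgeR FDR = 0.0304) and TIMM8B (edgeR FDR = 0.0516) were lower, where 11.7% of all genes were. Of 17 other transporters and channels of mitochondria, 1 was lower with all livers (3.65% of all genes). Without A and the 4.1-year liver 4 were lower (11.7% of all genes) and 1 higher (14.2% of all genes). The 1 lower with all livers was MTCH2, a relative of the carriers that inserts proteins into the outer membrane. It had 94.7, 155 and 177 CPM in A, B and C, against 247 to 297 CPM in young livers. Old and young livers did not overlap in MTCH2, and its log2 fold change was -0.94 (SE 0.25, edgeR FDR = 0.0541), and -0.71 without A and the 4.1-year liver (edgeR FDR = 0.0136).

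Of 10 enzymes of the citrate, malate-aspartate and glycerol phosphate shuttles, 1 was lower (citrate synthase, CS), against 3.65% of all genes, with a median of -0.57 over the list. Without A the median was -0.37 and CS did not pass (log2 fold change -0.70, edgeR FDR = 0.151). Without A and the 4.1-year liver 2 of the 10 were lower, against 11.7% of all genes. These were CS (-0.63, edgeR FDR = 0.0411) and GOT1 (-0.43, edgeR FDR = 0.0646). With all livers GOT1 had -0.07 (edgeR FDR = 0.859), and A, with 306 CPM, was its highest liver. Of 6 regulators of mitochondrial genes, 1 was higher, against 11.7% of all genes. ESRRA, a nuclear receptor that acts with PPARGC1A, had 197, 62.1 and 74.4 CPM in A, B and C, against 30.5 to 62.3 CPM in young livers, and a log2 fold change of 1.35 (edgeR FDR = 0.0567). Without A this was 0.65 and did not pass (edgeR FDR = 0.229), and without A and the 4.1-year liver it was 0.78 (edgeR FDR = 0.0263). The 4.1-year liver was the highest of the young in ESRRA and just above B. Without A and the 4.1-year liver, 1 of the 6 regulators was higher (14.2% of all genes) and 1 was lower (11.7% of all genes). The lower one was TFAM (log2 fold change -0.41, edgeR FDR = 0.0637), which had -0.44 with all livers (edgeR FDR = 0.444).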

How the data were processed

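Polyadenylated liver RNA of 3 old and 6 young male naked mole-rats was sequenced as single-end reads (TruSeq RNA v2). STAR 2.4.1d, named in the methods and in the submitters' processing notes, mapped the reads, those with 1 place in the genome were kept, and HTSeq counted them on the authors' own annotation. Neither a version nor a strand setting is named for HTSeq in the labels or methods. Reads of overlapping genes on opposite strands may therefore be mixed. The deposited counts are whole numbers and not normalized, for 16339 rows. Left out were 93 rows whose old and young values follow another order of symbols (0.319% of the counts) and 25 rows with symbols turned into dates (0.133%). No libraries were closer than sampling noise (lowest chi-square per degree of freedom 27.6), and each counts as 1 replicate. Labels give 1 animal per library.

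The whole table was fitted in R 4.3.3 with edgeR 4.0.16 (TMM, filterByExpr with age as group, robust glmQLFit, glmQLFTest, no covariates), with Benjamini-Hochberg adjustment over 12277 genes and the threshold of the study, FDR 0.1. CPM are TMM-normalized. The SE is the size of the log2 fold change divided by the square root of F. Paralog ratios used counts plus 0.5 and exact permutation tests over the 9 livers. The edgeR script was tested on simulated data. Alternatives were DESeq2 1.42.0, its size factors, limma 3.58.1 voom with quality weights, upper quartile scaling, TMM without the 50 genes with most counts, other filters, FDR 0.05, all rows, other pseudocounts and leaving out livers.

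Members, role groups, pairs and lists were chosen with earlier results of these data known. Values per liver were planned for the members called, those without overlap, and the one with the most counts in each role group; the other members given with values were added to these. Symbols of 46 of the 48 members matched the RefSeq gene table, which is of another build, so no coordinates are given. Of the members, 1 that was tested enters all counts and medians but is not reported here.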

Additional observations from a re-analysis of the deposited data

Results flagged for a closer look

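In 4 of 23 sets of young values the highest or lowest liver lay farther from the rest than Dixon's criterion allows. For a single set chance gives this in about 1 of 20. The sets share the same young livers and partly the same genes, so their number cannot be read against that rate. All 4 concern the 4.1-year liver. It had the lowest SLC25A13 level of the young livers, with 28.7 CPM, and the highest levels of SLC25A39, with 75.4 CPM, and of SLC25A44, with 160 CPM. Its log2 ratio of SLC25A18 to SLC25A22 counts was the highest, at 2.99.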

How the results depend on the processing

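The median log2 fold change of the carriers stayed negative under all alternatives, between -0.26 and -0.02. Over all genes it was 0.02 with all livers, -0.02 without A and -0.01 without A and the 4.1-year liver. In these 3 fits the carriers had -0.15, -0.09 and -0.02. For the other alternatives no median over all genes is given, so the constant sign is not read as particular to the carriers. The number of carriers higher in old livers was 1, but 2 with DESeq2, 5 with limma voom and 2 without liver A and the 4.1-year liver, and between 1 and 5 when each liver was left out. The number lower was 1, but 5 with DESeq2, 9 with limma voom and 8 without liver A and the 4.1-year liver, and between 0 and 6 when each liver was left out. It was 0 without the 2.7-year or the 3.7-year liver and 6 without the 4.1-year liver, where 7.06% of all genes were lower. For the fits without the 2.7-year or the 3.7-year liver no share over all genes is given. The count of 0 is therefore not read as particular to the carriers. In limma voom 20.5% of all genes were called higher and 16.8% lower, and in DESeq2 14.5% and 8.72%. The cause of these differences in count was not tested.

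Signs turned in values that were near 0 or rested on liver A. SLC25A10 had log2 fold changes of -0.048 with upper quartile scaling, -0.23 with limma voom and -0.23 without A and the 4.1-year liver, and between -0.25 (without A) and 0.23 (without B) when single livers were left out. SLC25A6 had 0.27 with limma voom and 0.27 without A and the 4.1-year liver, and between -0.41 (without C) and 0.30 (without A). Leaving out single livers gave log2 fold changes between -0.12 (without A) and 1.06 (without C) for SLC25A37, between -0.12 (without A) and 0.40 (without B) for SLC25A39 and between -0.086 (without A) and 0.80 (without B) for SLC25A44, which had -0.013 without A and the 4.1-year liver. Differences of log2 ratios, with single livers left out, lay between -0.067 (without B) and 0.20 (without A) for SLC25A4 over SLC25A5, between -0.16 (without the 3.7-year liver) and 0.44 (without the 4.1-year liver) for SLC25A12 over SLC25A13, and between -0.078 (without B) and 0.21 (without C) for SLC25A37 over SLC25A28. They lay between -0.27 (without A) and 0.78 (without B) for SLC25A10 over SLC25A11, which had -0.18 without A and the 4.1-year liver, and between -0.15 (without the 3.7-year liver) and 0.31 (without the 3.4-year liver) for SLC25A33 over SLC25A36. For SLC25A6 over SLC25A5, leaving out any 1 old liver gave 0.57 to 0.76 and an exact permutation p of 0.0714, and without A and the 4.1-year liver 0.50 (exact permutation p = 0.0952), each the smallest p that so few livers allow. No paired analysis was made, because old and young livers came from different animals. With 3 old livers, of which A stands apart, spreads were wide, and a carrier that did not pass the threshold is not shown to be unchanged.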
